A study of Mus musculus with 12 samples.

Results

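The TGF-beta, BMP and activin pathway was described here in 2 mouse osteosarcoma cell lines through 46 genes: 16 ligands, 10 receptors, 8 Smads, 4 Id genes, 4 extracellular antagonists and 4 latent TGF-beta binding proteins. The genes were listed by name from the known pathway, and a probe belonged to one of them if the accession printed on the array was that gene's RefSeq accession. All 46 members had a probe, out of 20144 genes named on the array, and 60 of the array's 39429 probes belonged to them. Dunn is a mouse osteosarcoma line that was started from an osteoblastic tumor and has a low metastatic potential. LM8 is a highly metastatic derivative obtained from Dunn by selection in mice. Each line was followed from an early passage, 25 for Dunn and 24 for LM8, to a late passage, 86 for Dunn and 91 for LM8. RNA of each of these 4 groups was hybridised to 3 single-colour arrays, 12 arrays in all. All cells were grown in the same serum-containing medium without further treatment, and frozen stocks were thawed and passaged again before RNA was taken. Each line is 1 population carried in culture, so a passage or a line is represented by 1 culture history.

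Ligands of the TGF-beta superfamily are secreted dimers that assemble type I and type II serine/threonine kinase receptors. TGF-betas and activins signal mainly through Smad2 and Smad3 and BMPs mainly through Smad1, Smad5 and Smad9, with Smad4 as the shared partner, while Smad6 and Smad7 act as inhibitors inside the cell. In bone, BMPs drive osteoblast differentiation, and TGF-beta is stored in the matrix bound to latent binding proteins.

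Signals are given as log2 scaled signal, the log2 of the scanner's processed signal minus the 75th percentile of all probes on that array, so that 0 is the 75th percentile and levels of different probes are not compared. A probe was well above background where the scanner software marked it so. Of the 46 members, 24 were well above background on all 12 arrays, 17 on some and 5 on none. These 5 were Bmp2, Bmp3, Gdf6, Gdf10 and Bmpr1b, for which no level is given. The 75th percentile itself lay between 253.1 and 521.6 on the early Dunn arrays, between 609.1 and 840.4 on the late Dunn arrays, between 788.2 and 1148 on the early LM8 arrays and between 1033 and 1699 on the late LM8 arrays. The dimmest well-measured probe read -3.39, -5.79 and -4.49 on the early Dunn arrays and between -7.05 and -6.11 on the LM8 arrays. From 39% to 49% of probes were well above background in early Dunn and from 53.7% to 59.1% in LM8. Numbers of arrays well above background are therefore not directly comparable between these groups. Replicate arrays correlated over all probes with r of 0.959 to 0.991, except that late Dunn replicate 1 correlated with the other late Dunn arrays at 0.918. Each of the 3 slides carried 1 array of every group, so differences are also given within slides. Each group sat at the same position on every slide, so group and position cannot be told apart, also within slides. Of 10 osteoblast markers, 9 had a probe and 6 to 9 of them were well above background on each array, Col1a1, Runx2 and Sp7 among them.

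A member was called where it differed more than 2-fold with a Benjamini-Hochberg adjusted p below 0.05 over all probes (limma) and its probe was well above background on all 3 arrays of a group on the higher side. The study's level used the unadjusted p instead. Between early and late LM8, 3 of 46 members were called, or 6.52%, against 2.41% of all 20144 genes, and 1 was higher and 2 were lower in late cells, where 0.879% and 1.53% of all genes were. Between early and late Dunn 0 members were called by limma, where 0.00497% of all genes were. In that comparison 3 members passed the study's level, which 3.82% of all genes passed. The methods' t-test, the test named in the study's methods, also called 0 with the same adjustment. With the slide as a block, which paired the Dunn passages, 4 passed the study's level, Tgfbr1 (1.71) in addition. The second Tgfbr1 probe, well above background on all 12 arrays, gave -0.10 between Dunn passages (SE 0.39, adjusted p 0.989, limma without the block). With both passages of a line pooled, LM8 differed from Dunn in 9 of 46 members, or 19.6%, against 10.6% of all genes, and 3 were higher and 6 lower in LM8, as 4.18% and 6.47% of all genes were. This split differed with the processing: it was 3 higher and 3 lower with the percentile taken over well-measured probes, 0 and 7 after normexp background correction and 13 and 2 without scaling. At early passage 3 members differed between the lines, against 3.39% of all genes, and all 3 were lower in LM8, as 2.07% of all genes were. At late passage 2 members did, against 3.5% of all genes, and both were lower in LM8, as 2.29% of all genes were. The median of all genes was itself shifted, by -0.35 between Dunn passages, -0.20 between LM8 passages and -0.68 between the pooled lines, and by -0.77 and -0.57 between the lines at early and late passage. Other processing moved these medians, for the pooled lines to -0.17 with quantile normalization, -0.32 with the percentile over well-measured probes, 0.50 without scaling and -0.88 after normexp background correction, and changes of members are therefore also given relative to the median gene.

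**Figure D1:**
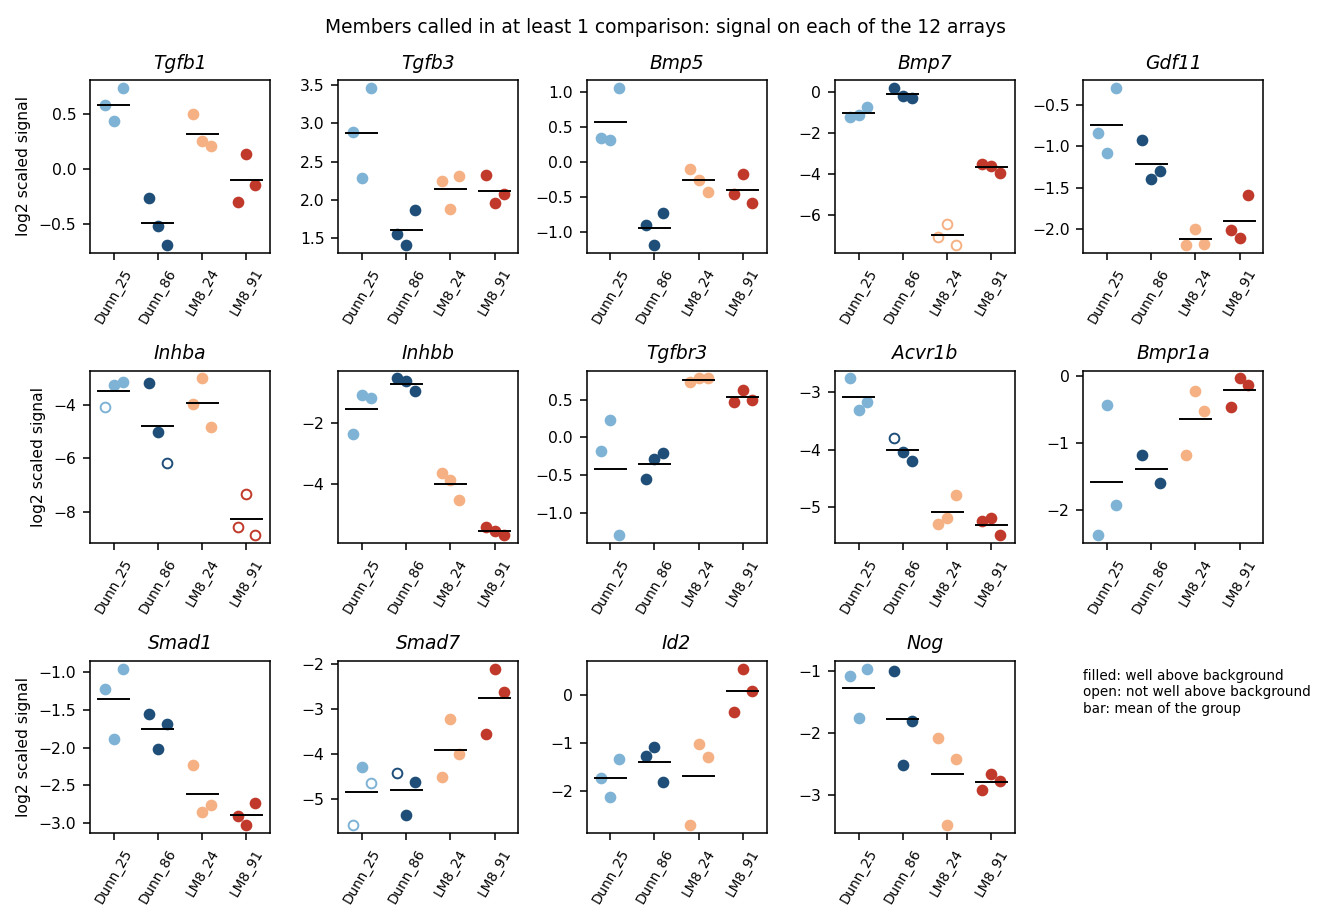
Log2 scaled signal (vertical axis) of the 14 members that were called in at least 1 comparison or passed the study's level between passages, on each of the 12 arrays, by group (horizontal axis); filled points were well above background, open points were not, and bars are group means. Bmp7 and Inhbb are lower on all 6 LM8 arrays than on all 6 Dunn arrays, and Inhba is lower on the 3 late LM8 arrays than on the other 9. Of all genes well above background on all arrays of a group, 19.8% are lower on all 6 LM8 arrays than on all 6 Dunn arrays.

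Bmp7, a BMP that promotes bone formation and kidney development, was lower in LM8 than in Dunn at both passages. Its log2 scaled signal was -1.22, -1.14 and -0.72 on the early Dunn arrays and 0.20, -0.17 and -0.27 on the late Dunn arrays. On the early LM8 arrays it read -7.08, -6.45 and -7.47, none of them well above background, and on the late LM8 arrays -3.49, -3.60 and -3.95, all well above background. The 4 groups did not overlap, and their order was late Dunn, early Dunn, late LM8 and early LM8. In early LM8 cells Bmp7 was at least 39.6-fold lower than in early Dunn cells (fitted log2 change -5.98, SE 0.38, adjusted p 0.000989). The late LM8 cells were 12.1-fold below the late Dunn cells (log2 change -3.60, SE 0.26, adjusted p 0.00367). With the slide as a block this late difference kept its size, with an adjusted p of 0.0554. Pooled over passages the difference was -4.79 (SE 0.73, adjusted p 0.00115), or -4.11 relative to the median gene, and it lay between -4.37 and -5.22 within the 3 slides.

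Within LM8, Bmp7 rose at least 6.29-fold from early to late passage (fitted log2 change 3.32, SE 0.31, adjusted p 0.00306), and the rise was 3.60, 2.85 and 3.52 on the 3 slides. After normexp background correction with an offset added to every signal the change was 0.81 with an adjusted p of 0.198. In Dunn cells the corresponding value was 0.95 (SE 0.32, adjusted p 0.766). The fitted difference between these passage changes was 2.37 (SE 0.43, adjusted p 0.0570). It rests on early LM8 values that were not well above background and is not a measured size. Without late Dunn replicate 1 Bmp7 passed that test. The methods' t-test gave the rise in LM8 an adjusted p of 0.0595.

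Inhba and Inhbb encode the beta subunits of activin A and activin B, and either can instead pair with the alpha subunit to form an inhibin. The log2 scaled signal of Inhbb was -2.35, -1.06 and -1.15 in early Dunn, -0.52, -0.61 and -0.94 in late Dunn, -3.63, -3.87 and -4.53 in early LM8 and -5.42, -5.56 and -5.68 in late LM8. All arrays were well above background and no 2 of the 4 groups overlapped. Inhbb was 12.8-fold lower in LM8 with passages pooled (log2 change -3.68, SE 0.43, adjusted p 0.000185), which is -3.00 relative to the median gene. The gap was 5.62-fold at early passage (-2.49, SE 0.47, adjusted p 0.0400) and 29.1-fold at late passage (-4.86, SE 0.23, adjusted p 0.00110). With the slide as a block the early difference had an adjusted p of 0.0815, and without early Dunn replicate 3 or any 1 early LM8 array it lay between 0.129 and 0.186. From early to late LM8, Inhbb fell 2.91-fold (log2 change -1.54, SE 0.27, adjusted p 0.0434), by -1.78, -1.69 and -1.15 on the 3 slides. This call was lost in 11 of 17 alternative settings, the slide block (adjusted p 0.0767) and the removal of any 1 array except early LM8 replicate 3 (adjusted p 0.107 to 0.195) among them. In Dunn the passage difference was 0.83 (SE 0.45, adjusted p 0.766), and the difference between the passage changes of the lines was -2.37 (SE 0.53, adjusted p 0.135).

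Inhba was well above background on 7 arrays. Its log2 scaled signal was -4.05, -3.24 and -3.12 in early Dunn, -3.16, -5.00 and -6.18 in late Dunn, -3.97, -2.99 and -4.80 in early LM8 and -8.57, -7.33 and -8.88 in late LM8. The 3 late LM8 arrays lay below all others and none was well above background, whereas the other 3 groups overlapped. Between early and late LM8 Inhba fell at least 6.82-fold (fitted log2 change -4.34, SE 0.57, adjusted p 0.0129), by -4.60, -4.34 and -4.08 on the 3 slides. Without early LM8 replicate 1, late LM8 replicate 1 or late LM8 replicate 3 the adjusted p was 0.0517, 0.0571 and 0.0616, and after normexp correction the change was -1.22 with an adjusted p of 0.0714. Late LM8 cells were at least 3.76-fold below late Dunn cells, with an adjusted p of 0.119.

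The 250 bases upstream of the annotated start of both activin subunit genes, each of which fell from early to late LM8, are shown beside those of Id2, a gene known to be a direct target of BMP Smads. They are taken from RefSeq (build GRCm38.p6), Inhba from chr13:16011601-16011850 on the plus strand, Inhbb from chr1:119422249-119422498 and Id2 from chr12:25096093-25096342, both on the minus strand, and are written 5' to 3' along the gene. Capitals mark matches on either strand to GGCGCC, a GC-rich sequence bound by BMP Smads, and GGGCGG, the GC box, while a search for the Smad sequence CAGAC found 0 matches in the 3 windows.
Inhba: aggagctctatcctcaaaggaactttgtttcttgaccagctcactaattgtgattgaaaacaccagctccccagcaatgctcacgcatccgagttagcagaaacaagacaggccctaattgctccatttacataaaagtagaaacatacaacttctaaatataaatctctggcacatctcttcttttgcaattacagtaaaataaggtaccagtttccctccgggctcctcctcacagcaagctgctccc
Inhbb: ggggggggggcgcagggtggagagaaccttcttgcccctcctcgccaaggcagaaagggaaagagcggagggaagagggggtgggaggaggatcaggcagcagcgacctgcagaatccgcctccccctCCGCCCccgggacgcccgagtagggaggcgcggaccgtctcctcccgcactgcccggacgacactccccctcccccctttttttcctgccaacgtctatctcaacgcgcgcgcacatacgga
Id2: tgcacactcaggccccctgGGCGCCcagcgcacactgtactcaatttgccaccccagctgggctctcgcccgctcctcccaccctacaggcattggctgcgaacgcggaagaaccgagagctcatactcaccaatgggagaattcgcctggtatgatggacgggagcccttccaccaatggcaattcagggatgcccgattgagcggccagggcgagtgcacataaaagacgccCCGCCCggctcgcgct
The Inhba window held 43.2% G and C and none of the 3 motifs. The Inhbb window held 68.0% G and C and a GC box that began 122 bases before the start. In the Id2 window GGCGCC lay 231 bases and a GC box 16 bases before the start. Over the 32851 windows of all annotated promoters, 9.59% held GGCGCC, 32.7% GGGCGG and 42.2% CAGAC, and 33 of the 46 members were in the table with 41 windows, of which 26.8%, 73.2% and 43.9% held the respective motif. The median of all windows was 52.4% G and C, and the content of the member windows as a group was not computed. Their shares of GGCGCC and GGGCGG therefore cannot be told apart from base composition. Matches of different motifs were allowed to overlap.

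Among the other BMPs and growth differentiation factors, Gdf11, a relative of myostatin, had log2 scaled signals of -0.84, -1.08 and -0.30 in early Dunn, -0.93, -1.40 and -1.30 in late Dunn, -2.19, -2.0 and -2.18 in early LM8 and -2.01, -2.11 and -1.59 in late LM8. All 6 LM8 arrays lay below the 6 Dunn arrays. The same held for 19.8% of comparably measured genes, which are those well above background on all arrays of a group. Gdf11 was called lower in LM8 with passages pooled (log2 change -1.04, SE 0.22, adjusted p 0.00767), which is -0.36 relative to the median gene. Without scaling its value was 0.15, and without early Dunn replicate 3 it was -0.90, under 2-fold. Bmp5, a BMP that shapes the skeleton, read 0.34, 0.32 and 1.06 in early Dunn and -0.90, -1.18 and -0.72 in late Dunn, without overlap. In Dunn 29.9% of comparably measured genes were likewise lower in late cells without overlap. Its passage difference in Dunn of -1.50 (SE 0.35, adjusted p 0.548) passed only the study's level, and without scaling it was -0.53 and did not. In LM8, Bmp5 read -0.10, -0.25 and -0.42 at early and -0.45, -0.17 and -0.58 at late passage, and these groups overlapped. The difference between the passage changes of Bmp5 in the lines was 1.36 (SE 0.38, adjusted p 0.306).

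Bmp4, an inducer of osteoblast differentiation, was read on a probe that was well above background on all 12 arrays, with log2 scaled signals between 4.70 and 6.30. Its late arrays lay below its early arrays in both lines, as for 29.9% of comparably measured genes in Dunn and 17.9% in LM8. Its passage difference was -0.77 in Dunn (adjusted p 0.766) and -0.56 in LM8 (adjusted p 0.268), under 2-fold in both. The second Bmp4 probe was well above background on 0 arrays. Bmp8a lay between -0.30 and 0.28 in early Dunn and between -1.61 and -1.50 in early LM8, and this early difference between the lines was not called (log2 change -1.47, SE 0.31, adjusted p 0.0523). Bmp8a has a closely related neighbour, Bmp8b, and the probe may not separate them. Bmp6 was well above background on 1 array, early Dunn replicate 2. Gdf5, a factor of joint formation, was well above background on 8 arrays, all 6 LM8 arrays among them, and its pooled difference was 0.49 (SE 0.89, adjusted p 0.653). It read -5.52 on early Dunn replicate 1, not well above background, and -6.21 on early LM8 replicate 3, well above background.

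The 3 TGF-beta genes were expressed in both lines. Tgfb1, the most widely expressed isoform, had log2 scaled signals of 0.59, 0.44 and 0.74 in early Dunn and -0.26, -0.52 and -0.69 in late Dunn. In LM8 it read 0.50, 0.26 and 0.21 at early and -0.30, 0.14 and -0.14 at late passage. Late arrays lay below early arrays in both lines, as for 29.9% of comparably measured genes in Dunn and 17.9% in LM8. The Dunn difference of -1.08 (SE 0.30, adjusted p 0.674) passed the study's level only and was -0.73 relative to the median gene. In LM8 it was -0.43 (SE 0.21, adjusted p 0.295).

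Tgfb3, an isoform prominent in mesenchyme, read 2.88, 2.29 and 3.46 in early Dunn, 1.55, 1.41 and 1.87 in late Dunn, 2.25, 1.88 and 2.31 in early LM8 and 2.33, 1.96 and 2.07 in late LM8. The Dunn passages were separate, with late below early as for 29.9% of comparably measured genes, and the LM8 passages overlapped. Its Dunn difference was -1.27 (SE 0.40, adjusted p 0.760), again past the study's level only, against -0.03 in LM8 (SE 0.22, adjusted p 0.942). Without early Dunn replicate 1 or 3 or late Dunn replicate 2, Tgfb3 no longer passed that level, nor did Tgfb1 without late Dunn replicate 3. With the percentile taken over well-measured probes, neither Tgfb1 nor Tgfb3 passed the study's level in Dunn, since both were then less than 2-fold apart. Tgfb2 lay between 2.69 and 4.25 over the 11 arrays with a usable spot and was below 2-fold in all 5 comparisons. Its second probe passed the study's level between LM8 passages, with 1.22 (SE 0.45, adjusted p 0.292). Between the pooled lines the Tgfb2 probes pointed opposite ways, with -0.76 (SE 0.25, adjusted p 0.033) on the probe used and 0.70 (SE 0.43, adjusted p 0.188) on the second.

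**Figure D2:**
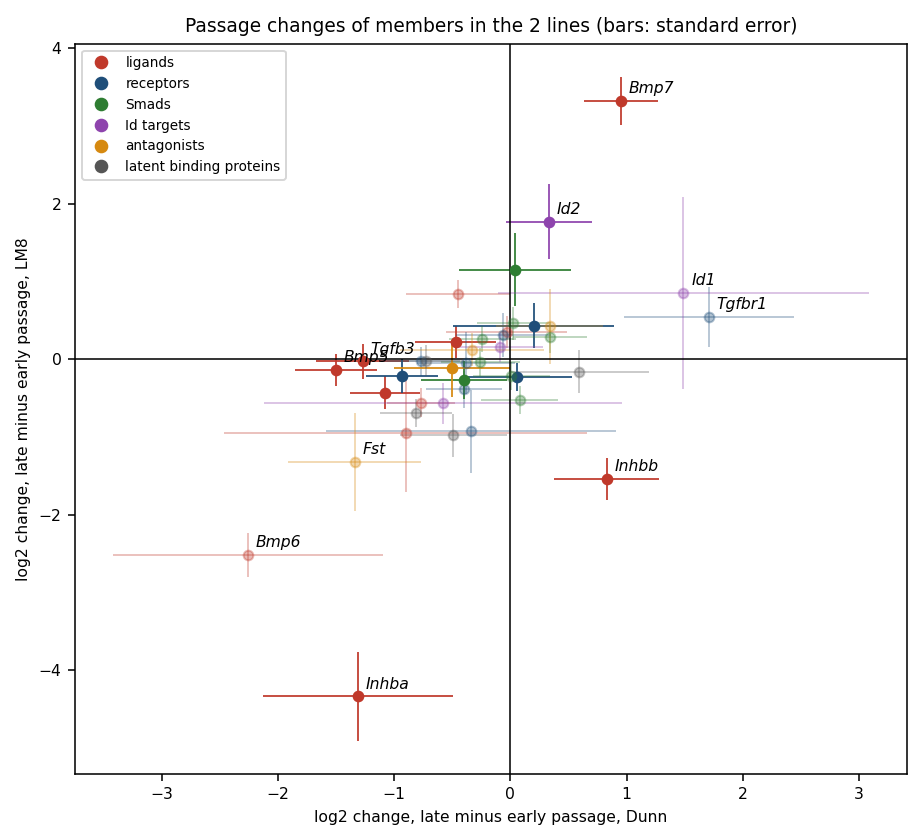
Log2 change from early to late passage in Dunn (horizontal axis) and LM8 (vertical axis) for the 41 members well above background on at least 1 array, coloured by role, with standard errors as bars; members called in a comparison or past the study's level between passages are drawn in full colour. Bmp7 stands alone at the top with 3.32 in LM8, Inhba at the bottom with -4.34, and Inhbb lies at 0.83 in Dunn and -1.54 in LM8.

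Of the 10 receptors, Acvr1b, the type I receptor of activins also known as ALK4, was lower in LM8. Its log2 scaled signal was -2.77, -3.31 and -3.18 in early Dunn, -3.80, -4.05 and -4.20 in late Dunn, -5.28, -5.18 and -4.78 in early LM8 and -5.23, -5.18 and -5.48 in late LM8. No LM8 array reached a Dunn array, as for 19.8% of comparably measured genes. The difference was -1.64 with passages pooled (SE 0.26, adjusted p 0.00159), or -0.96 relative to the median gene, and -1.99 at early passage (SE 0.32, adjusted p 0.0259). With the slide as a block the early difference had an adjusted p of 0.0815, and without early Dunn replicate 3 or any 1 early LM8 array it lay between 0.0882 and 0.139. At late passage it was -1.28 (SE 0.23, adjusted p 0.0576).

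Tgfbr3, or betaglycan, a co-receptor that presents TGF-beta and binds inhibin, was higher in LM8. Its log2 scaled signal read -0.18, 0.23 and -1.29 in early Dunn, -0.55, -0.28 and -0.21 in late Dunn, 0.73, 0.78 and 0.78 in early LM8 and 0.47, 0.63 and 0.50 in late LM8. All 6 LM8 arrays exceeded the 6 Dunn arrays, as for 3.78% of comparably measured genes. The pooled difference was 1.03 (SE 0.24, adjusted p 0.0130), or 1.71 relative to the median gene. Without late Dunn replicate 1 or early Dunn replicate 3 it was 0.99 and 0.85, under 2-fold. Bmpr1a, a type I BMP receptor also known as ALK3, read -2.37, -0.44 and -1.92 in early Dunn, -1.18 and -1.59 on the 2 usable late Dunn arrays, -1.18, -0.23 and -0.53 in early LM8 and -0.47, -0.04 and -0.14 in late LM8. Lines overlapped for Bmpr1a. Its pooled difference of 1.07 (SE 0.35, adjusted p 0.0320), fitted without the missing array, was lost in 11 of 23 alternative settings, among them the removal of any 1 of 8 arrays: early Dunn replicates 1 and 3, late Dunn replicate 1, early LM8 replicates 2 and 3 and all 3 late LM8 arrays (adjusted p 0.0501 to 0.0707).

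For the receptors Tgfbr1 and Acvr2a the probes pointed opposite ways. The Tgfbr1 probe used here, for the type I TGF-beta receptor, gave a pooled difference of 1.36 (SE 0.54, adjusted p 0.0558), whereas its second probe gave -1.18 (SE 0.25, adjusted p 0.00800). Both probes were measured well above background on at least 11 arrays, so the direction of Tgfbr1 between the lines was not settled. Acvr2a, a type II activin receptor, differed by 0.40 (SE 0.24, adjusted p 0.18) on the probe used, well above background on 10 arrays, and by -1.15 (SE 0.50, adjusted p 0.0743) on its second probe, well above background on 5. The Acvr1 probes, for a type I receptor of BMPs and activins, both pointed down in LM8, with -0.95 (adjusted p 0.0132), just under 2-fold, and -1.26 (adjusted p 0.00923). Tgfbr2, the type II TGF-beta receptor, was well above background on 1 of 12 arrays, late Dunn replicate 1, and on its second probe on 0 arrays. Acvr2b and Bmpr2, type II receptors of activins and BMPs, differed by -0.64 and -0.89 between the pooled lines, both under 2-fold.

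Among the Smads, Smad1, a transducer of BMP signals, read -1.22, -1.89 and -0.95 in early Dunn, -1.55, -2.02 and -1.68 in late Dunn, -2.23, -2.85 and -2.76 in early LM8 and -2.90, -3.03 and -2.73 in late LM8. All LM8 arrays lay below all Dunn arrays on this probe, as for 19.8% of comparably measured genes. Smad1 was lower in LM8 by this probe (log2 change -1.20, SE 0.23, adjusted p 0.00463), which is -0.52 relative to the median gene. Its second probe, also well above background on all 12 arrays, gave -0.22 (SE 0.28, adjusted p 0.508). Smad7, the inhibitor induced by TGF-beta, was dimmer, with well above background signal on 1 of 3 early and 2 of 3 late Dunn arrays and on all 6 LM8 arrays. It read -5.59, -4.29 and -4.65 in early Dunn, -4.42, -5.37 and -4.62 in late Dunn, -4.52, -3.22 and -3.99 in early LM8 and -3.55, -2.10 and -2.62 in late LM8. Lines overlapped between early LM8 and Dunn, while late LM8 lay above all Dunn arrays. The pooled difference was 1.49 (SE 0.40, adjusted p 0.0238), after normexp background correction it was -0.11, and without late LM8 replicate 2 or 3 the adjusted p was 0.0518 and 0.057. Between LM8 passages Smad7 differed by 1.15 (SE 0.47, adjusted p 0.292), which passed the study's level only, and not without early LM8 replicate 1 or 3 or late LM8 replicate 2 or 3. On the probes used, Smad2, Smad3, Smad4, Smad5, Smad6 and Smad9 differed by between -0.40 and -0.11 between the pooled lines. None was called in any of the 6 comparisons. The second Smad5 probe, well above background on 9 arrays, pointed the other way with 0.86 (SE 0.31, adjusted p 0.0435). The second Smad4 probe gave -0.51 (SE 0.18, adjusted p 0.0385).

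The Id genes encode inhibitors of basic helix-loop-helix factors and are switched on by BMP signalling. Id2 had log2 scaled signals of -1.73, -2.12 and -1.32 in early Dunn, -1.27, -1.08 and -1.80 in late Dunn, -2.71, -1.02 and -1.28 in early LM8 and -0.35, 0.56 and 0.09 in late LM8. The 3 late LM8 arrays lay above the other 9. Between LM8 passages Id2 differed by 1.77 (SE 0.48, adjusted p 0.171), with 2.36, 1.58 and 1.37 on the 3 slides, and passed the study's level, which 4.26% of all genes passed there. It passed that level in all 17 alternative settings. The difference between the passage changes of the lines was 1.44 (SE 0.65, adjusted p 0.911). Id3 was well above background on all 12 arrays and lay between 4.10 and 5.31, with pooled lines apart by -0.43 (adjusted p 0.0873). Id1 varied widely between replicates, with SDs of 1.56 to 2.44, and read from -6.69 to -2.44 in early Dunn, -5.22 to -0.34 in late Dunn, -4.35 to -1.24 in early LM8 and -4.49 to -0.32 in late LM8. Id4 was well above background on 1 array, late Dunn replicate 1.

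Of the extracellular antagonists, Nog, which encodes the BMP antagonist noggin, read -1.09, -1.77 and -0.97 in early Dunn, -1.0, -2.52 and -1.81 in late Dunn, -2.08, -3.49 and -2.42 in early LM8 and -2.92, -2.67 and -2.77 in late LM8. Early LM8 overlapped late Dunn. The pooled difference was -1.19 (SE 0.32, adjusted p 0.0224), or -0.51 relative to the median gene. Without scaling, the pooled values of Nog, Smad1 and Acvr1b were -0.01, -0.01 and -0.45. Grem1 and Chrd, for the BMP antagonists gremlin and chordin, were apart by -0.45 (adjusted p 0.280) and -0.55 (adjusted p 0.159) between the pooled lines. Fst, for the activin antagonist follistatin, was well above background on 1 of 12 arrays, in early LM8.

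The 4 latent TGF-beta binding proteins, which anchor latent TGF-beta in the matrix, were well above background on all 12 arrays and 0 were called. For Ltbp4 the log2 scaled signal was 3.88, 3.69 and 4.25 in early Dunn, 3.0, 3.15 and 3.25 in late Dunn, 3.28, 3.07 and 3.08 in early LM8 and 2.38, 2.57 and 2.41 in late LM8. Late arrays lay below early arrays in both lines, where 29.9% of comparably measured genes did so in Dunn and 17.9% in LM8. The passage difference was -0.81 in Dunn (SE 0.31, adjusted p 0.766) and -0.69 in LM8 (SE 0.18, adjusted p 0.162), and its second probe gave -0.98 and -0.93. Ltbp1, Ltbp2 and Ltbp3 were apart by 0.64, -0.17 and -0.15 between the pooled lines. Between Dunn passages Ltbp3 differed by -0.73 (SE 0.33, adjusted p 0.766) on the probe used, and its second probe passed the study's level with -1.12 (SE 0.36, adjusted p 0.76), without overlap.

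**Figure D3:**
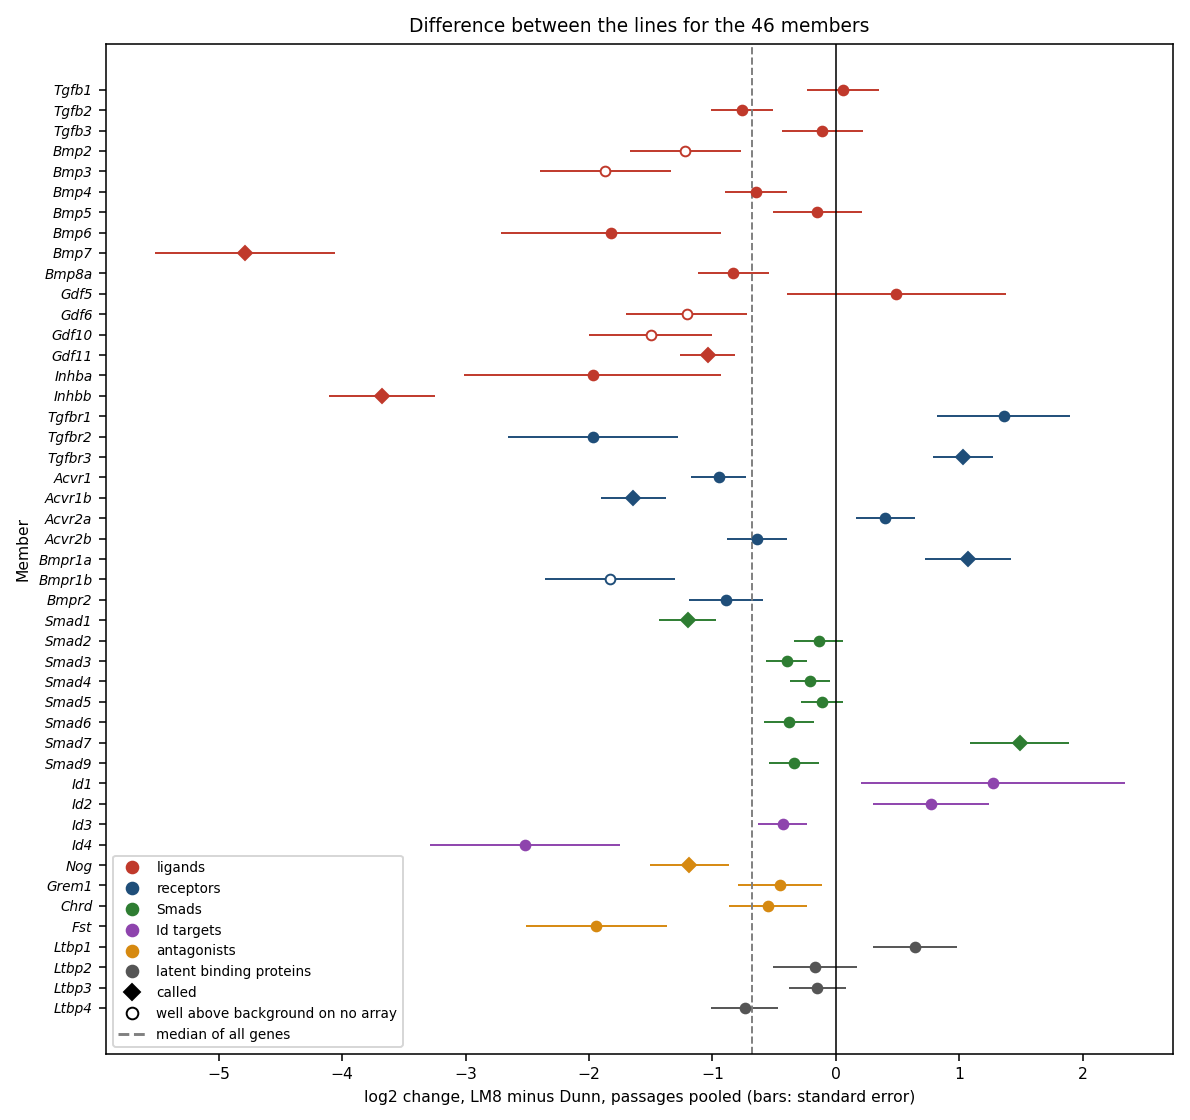
Log2 difference between LM8 and Dunn with passages pooled (horizontal axis) for the 46 members (vertical axis), coloured by role, with standard errors; diamonds were called, open circles were well above background on no array, and the dashed line at -0.68 is the median of all genes. Bmp7 at -4.79 and Inhbb at -3.68 lie far to the left of that line, while Tgfbr3, Bmpr1a and Smad7 lie between 1.03 and 1.49 on the right.

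The other genes of the pathway were taken from lists of further ligands, co-receptors, extracellular and intracellular regulators and transcriptional targets, 76 genes with a probe. Between LM8 passages 1 rose and 5 fell, beside 0.879% and 1.53% of all genes. Pmepa1, a TGF-beta-induced inhibitor of Smad signalling, fell at least 2.43-fold (fitted log2 change -3.31, SE 0.24, adjusted p 0.00133), since it was well above background on 3 of 3 early and 0 of 3 late LM8 arrays. Tgfbi and Ccn2, matrix proteins induced by TGF-beta, fell by 2.15 and 1.73 on the log2 scale (adjusted p 0.00190 and 0.00476). Eng, or endoglin, a co-receptor for TGF-beta and BMP9, fell by 1.56 (adjusted p 0.0131), and Nbl1, a BMP antagonist of the DAN family, fell by 1.64 (adjusted p 0.00849). The gene that rose was Cer1, another DAN-family antagonist (2.02, SE 0.19, adjusted p 0.00369). Of the 14 transcriptional targets with a probe, 2 were called, Tgfbi and Ccn2, and the list's median change was -0.08 beside -0.20 for all genes. In Dunn 0 of the 76 genes were called between passages by limma, where 0.00497% of all genes were. At the study's level 2 were higher and 6 lower in late cells, beside 1.15% and 2.66% of all genes. Means in Dunn also went down, from 3.65 ± 0.44 (SD, n = 3) to 0.83 ± 0.33 for Nbl1 and from 0.56 ± 0.13 to -0.91 ± 0.16 for Tgfbi. For Ccn2 they went from 1.32 ± 0.39 to 0.86 ± 0.36 and for Eng from 0.91 ± 0.37 to 0.77 ± 0.08. The falls of Nbl1 and Tgfbi were therefore not particular to LM8.

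**Figure D4:**
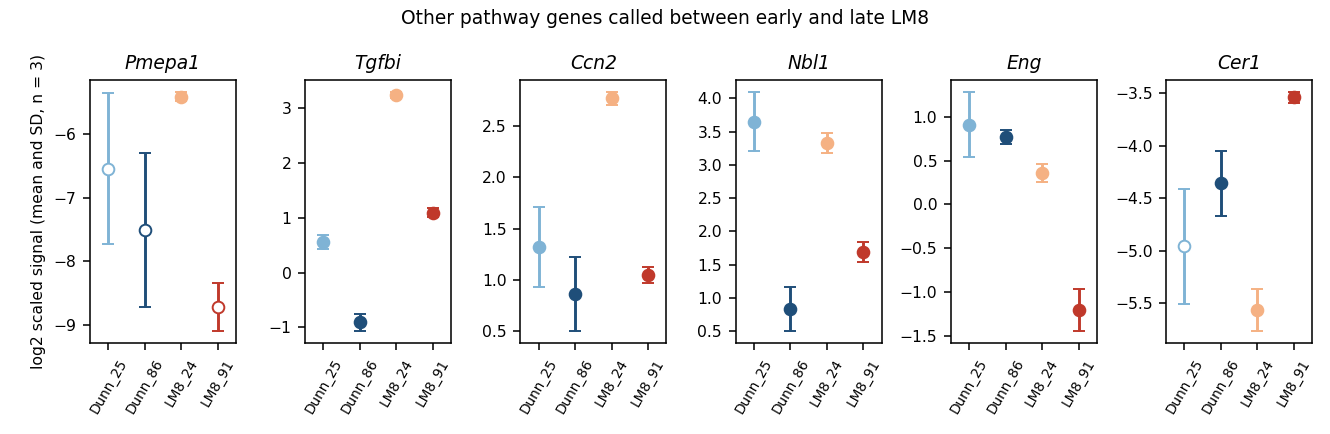
Mean log2 scaled signal with SD (vertical axis, n = 3 arrays) of the 6 other pathway genes called between early and late LM8, in the 4 groups (horizontal axis); filled points were well above background on all 3 arrays. Pmepa1, Tgfbi, Ccn2, Nbl1 and Eng are lower and Cer1 is higher in late than in early LM8.

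Between the pooled lines 9 of these 76 genes were higher and 7 lower in LM8, beside 4.18% and 6.47% of all genes. Among those higher in LM8 by fitted log2 change were Fstl3, an activin-binding follistatin relative (4.70, SE 0.53, adjusted p 0.000134), Msx2, a BMP target and bone transcription factor (3.67), Lefty1, an antagonist of Nodal (3.64), Crim1, a BMP-binding membrane protein (3.06, at least 2.73-fold), and Bmper, an extracellular BMP modulator (2.50). Among those lower were Lefty2 (-4.66), Gdf2, which encodes BMP9 (-3.47), Ccn1, a matricellular protein (-1.69), Dand5, a Nodal antagonist (-1.44), and Cdkn1a, the cell cycle inhibitor p21 (-1.37). The adjusted p values of these 10 genes lay between 4.92e-06 for Msx2 and 0.00572 for Lefty1. Lefty1 and Lefty2 are near-identical genes, so their opposite values depend on how well the 2 probes separate them. In Dunn cells Fstl3 had mean log2 scaled signals of -2.50 ± 0.67 (SD, n = 3) at early and -4.52 ± 1.03 at late passage, against 1.5 ± 0.07 and 0.88 ± 0.11 in LM8. Msx2 and Lefty1 were each well above background on 0 of 3 early and 1 of 3 late Dunn arrays and on all 6 LM8 arrays, and Crim1 on 0 Dunn arrays, so the fitted values of these genes have no order among them or against Bmper. Gdf2 was well above background on 3 of 3 late Dunn arrays, with a mean of -2.87, and on 0 arrays of the other groups. Its mean in early Dunn was -5.43, so the pooled value of Gdf2 rests on late Dunn and is not a measured size. At early passage 8 of the 76 genes were higher and 1 lower, beside 1.32% and 2.07% of all genes, and at late passage 6 were higher and 5 lower, beside 1.21% and 2.29%.

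Of the markers for other cell types, the summed scaled signal of 5 myeloid genes lay between 20.2 and 38.7 on the Dunn arrays and between 4.43 and 11.7 on the LM8 arrays. Only Fcer1g of this list was called, at -1.86 between the pooled lines (adjusted p 0.00100), while Ptprc, Adgre1 and Tyrobp were well above background on at most 1 array of any group and Csf1r was on all 12. Fcer1g made up nearly all of the sum, with means of 4.92 and 4.35 in early and late Dunn and 3.22 and 2.33 in early and late LM8. The means of Csf1r in the same order were -2.40, -2.53, -2.31 and -2.59. Chondrocyte sums over 5 of 6 genes ran from 0.244 to 0.628 in Dunn and from 0.105 to 0.188 in LM8, without overlap. They left out Col2a1, which lacked a value on some arrays. Its mean log2 scaled signal was 6.80 and 6.59 in early and late Dunn and 5.91 and 5.72 in early and late LM8. On the early Dunn arrays 0 to 3 of the 6 genes were well above background, so these sums hold undetected signal. Comp, a cartilage matrix protein, was called lower in LM8 with passages pooled (-2.30, adjusted p 0.000338) and at late passage. The osteoblast markers Phex and Alpl were called higher in LM8 with passages pooled (3.71 and 1.01, adjusted p 0.000647 and 0.0444), and 0 of the 9 were called lower. Means of Spp1, Ibsp and Sp7 were lower in both LM8 groups than in both Dunn groups. The median change of the osteoblast list was 0.24 beside -0.68 for all genes. Endothelial sums ran from 0.726 to 2.03 in Dunn and from 0.643 to 0.946 in LM8, and epithelial sums from 0.0949 to 1.36 and from 0.0848 to 0.172. The part of other cells in the differences between the lines was not tested, and in these bulk samples fewer cells of a type and less RNA per cell cannot be told apart.

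The test of the difference between the passage changes of the lines called 0 of 46 members (limma), where 0.616% of all genes were called. Unadjusted p values of this test lay below 0.05 for Bmp7, Inhbb, Bmp5, Inhba, Tgfb3 and Bmp8a, named after their values were seen. The share of all genes at that level was not computed, so this is no result about ligands as a group. Bmp7, Bmp5, Tgfb3 and Bmp8a had a more positive passage change in LM8 than in Dunn. The differences were 1.36 for Bmp5, 1.24 for Tgfb3 and 1.29 for Bmp8a. Inhbb had a more negative passage change in LM8, with a difference of -2.37. For Bmp7 and Inhba no size of the difference is given here. Their probes were well above background on 0 of 3 early LM8 and 0 of 3 late LM8 arrays, respectively.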

How the data were processed

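RNA of 12 samples was hybridised to single-colour Agilent mouse arrays, and the authors deposited each array's scanner intensity values, made with Agilent Feature Extraction 10.7.3 per the submitters' processing notes, and a table of the same processed intensity, rounded and not scaled. Control spots and spots marked as outliers were left out, log2 values of replicate spots were averaged, and every array was scaled by subtracting its own 75th percentile. Of 39429 probes, 26581 (67.4%) were matched by accession to a gene of RefSeq GRCm38.p6, and a gene was read on its probe with the highest mean signal. Used probes lacked a value for Tgfb2, Smad4 and Smad5 on early Dunn replicate 3 and for Bmpr1a on late Dunn replicate 2, and these fits ran on the remaining arrays. The tests used lmFit and eBayes of limma 3.58.1 (R 4.3.3), without a block and with Benjamini-Hochberg adjustment over all probes, with scripts tested on simulated data. A value of "at least N-fold" sets the mean of the bright group against, the dim group's mean, in which an array counts with its detection limit (its dimmest well-measured probe) where the probe lay under it. The members named were those called in a comparison, at the adjusted or the study's level for passage and at the adjusted level between lines, with the rest summarised. Arrays of one replicate number shared a slide. Deviations from the group means correlated between same-numbered Dunn passages (r of 0.679, 0.636 and 0.227), and less in the other comparisons, where at least 1 pair was below 0.1. Alternatives were quantile normalization, the percentile over well-measured probes, normexp correction (median signal and background, offset 50), the deposited table, a floor, a filter, 1 fit over all arrays, the slide block, array weights, the methods' t-test, other uses of several probes and each array left out. The members and lists were chosen with earlier results of these data known. The labels call the arrays independent replicates, but name no separate cultures or animals, so p values measure the spread between these samples. The number of arrays limits the precision.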

Additional observations from a re-analysis of the deposited data

How the results depend on the processing

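Over all alternatives, 395 values of named members kept their direction and their side of the threshold, 82 fell short of it and 2 turned: Smad7 between the pooled lines was -0.11 after normexp correction, and Gdf11 was 0.15 without scaling. Bmp7 and Inhbb were called between the pooled lines in all 23 alternatives, with -5.16 to -3.03 and -3.92 to -2.49, and Bmp7 at early and Inhbb at late passage in all 17. The cause of the shifts below was not tested. Between Dunn passages the count of 0 members became 1 with 1 fit over all arrays (Bmp5) and 8 with array weights. At the study's level there the 3, all lower, became 1 with normexp, 5 (all higher) without scaling and 8 with weights. They became 4 with the percentile over well-measured probes (3 higher and 1 lower, of which only Bmp5 was among the 3). With the slide block they became 4, with Tgfbr1 added on the probe used. Between LM8 passages the 3 became 1 with normexp (Id2) and 0 with the methods' t-test, and the 5 at the study's level became 2 with normexp. Between the pooled lines the 9 became 15 without scaling. At early passage the 3 became 5 with quantile normalization, 1 with the percentile over well-measured probes, 6 with normexp, 5 without scaling, 9 with the floor, 8 with the filter, 7 with 1 fit, 1 with the slide block (replicate pairing), 19 with weights and 5 with probes averaged. At late passage the 2 became 6 with the filter, 1 with the slide block and 8 with weights. For the difference of passage changes the 0 became 1 with quantile normalization, 1 with the percentile over well-measured probes, 2 with the filter, 7 with weights and 1 with probes averaged. With the slide block, the 3 members between LM8 passages became 2, and between the pooled lines Bmpr1a fell under 2-fold (0.97) while Tgfbr1 was gained.

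When single arrays were omitted, the counts ran from 0 to 0 between Dunn passages, 2 to 5 at the study's level (5 without late Dunn replicate 1), 1 to 3 between LM8 passages (1 without early LM8 replicate 1 or late LM8 replicate 1 or 3), 4 to 6 at the study's level, and 6 to 11 between the pooled lines. They ran from 1 to 12 at early passage (12 without early Dunn replicate 2, 1 without early Dunn replicate 3 or any 1 early LM8 array), 2 to 5 at late passage (5 without late Dunn replicate 1) and 0 to 1 for the difference of passage changes (1 without late Dunn replicate 1). Members near background, Inhba and Smad7 among them, are limited by their signal.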
